A study of Mus musculus with 12 samples.

Results

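Short shared H3K27me3 regions at promoters were stretches of the mouse genome, shorter than 5000 bp, that lay under H3K27me3 peaks in all 4 H3K27me3 lists and reached into the promoter of a protein-coding gene. Peaks 500 bp or less apart were first merged within each list, and a promoter ran from 1 kb upstream to 100 bp downstream of the TSS of any protein-coding transcript. There were 1496 such regions among 11563 stretches shared by the 4 lists. The regions were chosen by their H3K27me3 peaks, so each H3K27me3 value given for them is a description with no test. The other shared stretches comprised 528 promoter regions of 5000 bp or longer, 9113 short stretches away from promoters and 426 long stretches away from promoters.

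The lists came from cerebral cortex of *Gad67-GFP* heterozygote pups at P2, bred on a mixed background that was outcrossed to CD-1. GFP in these mice is made from the *Gad67* (*Gad1*) locus, which encodes an enzyme of GABA synthesis, so both sorted populations carried the same allele. The GFP+ cells were taken as cortical interneurons (CINs) and the GFP- cells, a mixture of the remaining cortical cells, as non-CINs, with tissue of 2 to 3 litters pooled for each sample. The paper compared the peaks of the 2 populations within each replicate. The sources do not state whether the same litters served both populations, so p-values measure only the spread between these samples. Native ChIP for H3K27ac and for H3K27me3 was performed in 2 replicates of each population, which gave 8 peak lists. These are bulk populations, in which fewer cells with a mark and less of the mark per cell cannot be told apart, and a region with both marks may hold them in different cells.

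H3K27me3 is placed by Polycomb repressive complex 2 and is found at promoters of genes that are silent in a cell type but are used in others. CpG-rich promoters are its usual sites, and the widest domains lie over developmental regulator genes such as the HOX clusters. H3K27ac is laid down on the same lysine by acetyltransferases and marks active promoters and enhancers, so 1 histone tail cannot carry both marks.

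The H3K27ac lists of replicate 1 held 62505 peaks in CINs and 59667 in non-CINs, against 46310 and 46040 in replicate 2. The H3K27me3 lists held between 36662 and 45081 peaks. No read counts were used here, and absence of a peak means only that none was called. Of 8 interneuron markers, 7 had H3K27ac at their promoter in each CIN list, against 0 and 1 in the non-CIN lists. Oligodendrocyte markers had it at 4 of 4 promoters in all 4 lists, astrocyte markers at 3, 3, 4 and 4 of 4, and projection neuron markers at 3 and 2 of 6 in CINs and at 2 and 4 in non-CINs. Endothelial markers had it at 0 of 4 promoters and microglial markers at 1 of 4 in every list. Glial markers were thus listed in both populations, and the part of glial cells in these results was not tested.

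The 200 bp upstream of a TSS are printed for 6 regions, to show promoters with very strong H3K27me3, those with H3K27ac in 1 population, and regions without H3K27ac that had the lowest CpG ratios. Sequence is from the RefSeq copy of the reference genome GRCm38 (mm10), 5′ to 3′ in the direction of the gene, with each CpG dinucleotide in capitals. Strong H3K27me3, taking the lowest of each region's 4 list percentiles, is shown by *Car4*, a carbonic anhydrase, and *Cyp27b1*, which makes active vitamin D. The *Car4* window (chr11:84957588-84957787, plus strand) overlaps an exon of another *Car4* transcript, and the *Cyp27b1* window (chr10:127048050-127048249, plus strand) overlaps no annotated gene.
Car4: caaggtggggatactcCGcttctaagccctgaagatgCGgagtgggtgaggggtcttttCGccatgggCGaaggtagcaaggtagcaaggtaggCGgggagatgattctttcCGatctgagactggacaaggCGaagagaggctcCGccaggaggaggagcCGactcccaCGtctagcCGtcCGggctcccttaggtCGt
Cyp27b1: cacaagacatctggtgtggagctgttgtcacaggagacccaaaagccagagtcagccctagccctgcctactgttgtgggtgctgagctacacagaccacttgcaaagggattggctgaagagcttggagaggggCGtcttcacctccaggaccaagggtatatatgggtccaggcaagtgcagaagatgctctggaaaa

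The *Car4* window held 13 CpGs and the *Cyp27b1* window 1. The H3K27me3 percentiles are of the whole regions, whose ratios of observed to expected CpGs were close, at 0.404 and 0.363. Regions with H3K27ac in 1 population are shown by *Eml2*, a microtubule-associated protein gene (chr7:19176221-19176420, plus strand), and *Tigd4* (chr3:84593374-84593573, plus strand). *Eml2* had H3K27ac in both CIN lists only, and *Tigd4* in both non-CIN lists only. The *Eml2* window overlaps no annotated gene, and the *Tigd4* window lies within *Gm37240* on the other strand, outside its exons.
Eml2: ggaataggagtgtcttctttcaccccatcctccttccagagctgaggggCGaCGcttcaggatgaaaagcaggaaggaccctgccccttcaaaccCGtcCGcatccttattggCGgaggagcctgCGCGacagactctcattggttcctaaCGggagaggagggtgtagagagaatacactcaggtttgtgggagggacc
Tigd4: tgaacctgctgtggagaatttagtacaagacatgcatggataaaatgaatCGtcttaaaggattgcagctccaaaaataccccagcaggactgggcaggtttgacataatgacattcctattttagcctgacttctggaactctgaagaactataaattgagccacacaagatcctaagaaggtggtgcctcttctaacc

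The *Eml2* window held 8 CpGs and the *Tigd4* window 1. Over the whole regions the order was reversed, with CpG ratios of 0.414 at *Eml2* and 0.530 at *Tigd4*. The window of *Stmn2*, which also had H3K27ac in both CIN lists only, held 0 CpGs and is not printed. The lowest CpG ratios among regions without H3K27ac were at *Ccdc114* (chr7:45928198-45928397, plus strand, within *Ccdc114*, outside its exons) and *A930004D18Rik* (chr2:18037738-18037937, minus strand, within *Gm13330* on the other strand, outside its exons).
Ccdc114: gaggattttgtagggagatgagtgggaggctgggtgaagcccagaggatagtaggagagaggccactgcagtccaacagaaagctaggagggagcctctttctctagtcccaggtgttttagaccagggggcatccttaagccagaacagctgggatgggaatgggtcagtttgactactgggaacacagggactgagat
A930004D18Rik: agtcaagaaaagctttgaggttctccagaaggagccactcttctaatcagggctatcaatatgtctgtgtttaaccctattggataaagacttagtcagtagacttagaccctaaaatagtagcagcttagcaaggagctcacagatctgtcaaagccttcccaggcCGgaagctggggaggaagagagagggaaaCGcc

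These windows held 0 and 2 CpGs. The whole *Ccdc114* region of 1005 bp lay at H3K27me3 percentiles of 94.4 and 80.4 in CINs against 91.8 and 90.9 in non-CINs. The *A930004D18Rik* region of 1484 bp lay at 53.9 and 65.5 in CINs against 80.2 and 86.7 in non-CINs.

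The 1496 regions touched promoters of 1452 protein-coding genes, which is 6.64% of the 21864 genes in the annotation. The long regions touched 592 genes (2.71%), and 20 genes had both kinds. Most regions belonged to 1 gene (1464 regions), and 32 lay between or over promoters of 2. Most genes likewise had 1 region (1377 genes), while 75 had 2 or more, up to 3. The regions covered 2935 kb in all and lay on 20 chromosomes, with 26 of them on X.

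The median length was 1721 bp (quartiles 832.5 and 2997.25 bp, range 1 to 4989 bp), and 66 regions were shorter than 200 bp, the length of the shortest listed peaks. A stretch counts only where all 4 lists agree, so it can be the common core of longer peaks. The merged peak over it had a median length of 2582.5 bp and 3421.5 bp in the CIN lists, against 2697 bp and 3223.5 bp in the non-CIN lists. In 1001 of the regions (66.9%) all 4 merged peaks were themselves shorter than 5000 bp, and in 51 at least 1 of them reached 10 kb.

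Strength was read as fold enrichment over input, ranked as a percentile within each list, with the strongest peak over a region standing for it. Fold enrichment had medians of 4.62 and 5.57 in the CIN lists, against 4.65 and 5.83 in the non-CIN lists. The percentiles had medians of 87.8 and 91.5 in CINs against 87.3 and 91.1 in non-CINs, so the typical region was among the stronger peaks of every list. The lowest of a region's 4 percentiles had a median of 79.8 (quartiles 55.4 and 92.1). The same measure was 98.4 at long promoter regions and 46.3 at short stretches away from promoters.

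Length and strength went together over these regions. The median of the lowest percentile was 30.6 for the 227 regions under 500 bp, 57.1 for the 232 from 500 to 1000 bp and 74.8 for the 384 from 1000 to 2000 bp. It was 89.2, 93.2 and 95.4 for the following 1000 bp classes, with 279, 231 and 143 regions. A longer stretch overlaps more peaks and takes the strongest of them, so part of this order comes with the measure.

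**Figure D1:**
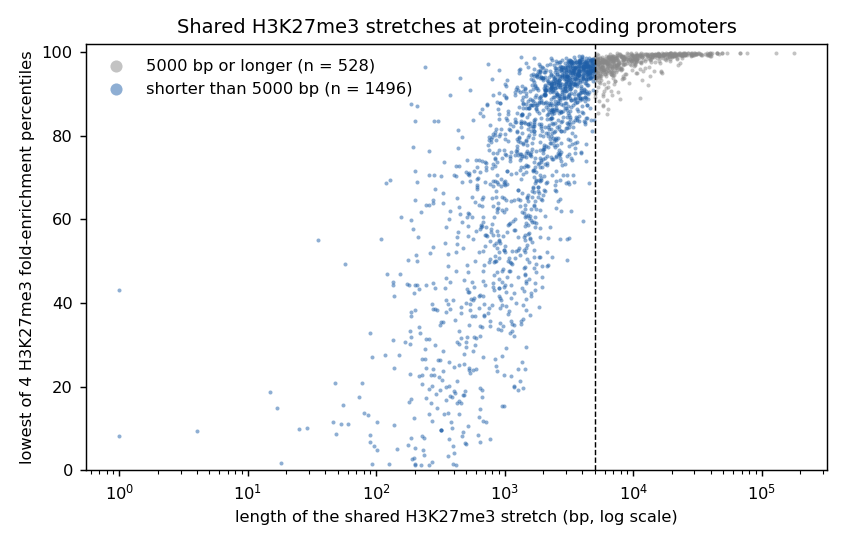
Each point is 1 shared H3K27me3 stretch at a promoter, with its length in bp on a log axis and the lowest of its 4 fold-enrichment percentiles on the other axis. The 1496 short regions (blue) range from 1 to 4989 bp, and their percentiles rise towards the 528 longer regions (grey, median 98.4) beyond the dashed line at 5000 bp.

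The limit of 5000 bp fell in a continuous distribution. The longest regions inside it were at *Il11*, a cytokine (4989 bp), *Vwa2* (4963 bp), *Acta1*, skeletal muscle actin (4963 bp), and *Gm47841* (4944 bp). Their lowest percentiles were 94.1, 95.8, 94.8 and 83.9. The shortest promoter regions beyond it were at *Fstl4* (5001 bp), *Adrb3*, an adrenergic receptor (5007 bp), *Has3*, a hyaluronan synthase (5013 bp), and the axon guidance receptor *Robo3* (5015 bp), with lowest percentiles of 94.3, 90.1, 95.7 and 99.0.

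The strongest regions were at genes of several tissues. *Runx2*, a transcription factor of bone formation, had H3K27me3 percentiles of 99.3 and 99.3 in CINs against 99.2 and 99.1 in non-CINs over 3815 bp, with fold enrichments of 8.01, 10.3, 7.37 and 11.1. *Car4* had fold enrichments of 7.92 and 9.70 in CINs against 8.24 and 10.9 in non-CINs. *Cyp27b1* had 7.98 and 9.84 in CINs against 9.35 and 10.7 in non-CINs. The populations overlapped in fold enrichment for all 3 genes, where replicate 2 gave the higher fold in each population. In percentiles both CIN lists lay above both non-CIN lists at *Runx2*, by less than 0.1 of a percentile.

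The region at *Gm10800* came next in this order and is described below. It was followed by *Cfc1*, a Nodal co-receptor gene (lowest percentile 98.8), *Chst8*, a sulfotransferase (98.7), *Samd11* (98.7), *Gbx1*, a homeobox gene (98.7), *Hes2*, a bHLH repressor (98.6), *Slc11a2*, a metal ion transporter (98.6), *Hspb1*, a small heat shock protein (98.5), and a region shared by *Odf3b* and *Tymp* (98.5). None of these 8 regions, and none of the first 3, had H3K27ac in any list, while *Gm10800* had it in all 4. *Gbx1* had the shared core of a longer peak, with 2287 bp in common and merged peaks of 7981, 8817, 8281 and 2973 bp.

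A region at *Gm10800*, a predicted gene on chromosome 2, stood apart. Its H3K27me3 fold enrichments were 30.9 and 19.4 in CINs against 6.96 and 24.3 in non-CINs, and it had H3K27ac in all 4 lists, at a percentile of 83.6 in non-CIN replicate 1. The region at *Gm10801*, beside it on the same chromosome, had H3K27me3 fold enrichments of 26.4, 17.8, 5.82 and 21.2 and H3K27ac in all 4 lists as well, at 84.3 in non-CIN replicate 1 and at 99.8 or higher elsewhere. Both marks were thus very high in the same 3 lists and lowest in non-CIN replicate 1.

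The lists ranked the regions alike. Spearman's rho over the 1496 regions was 0.795 between the CIN lists and 0.771 between the non-CIN lists, and 0.740 and 0.841 between populations at replicates 1 and 2. The points share their libraries and the choice of regions, so these values are descriptions. Between lists that differ in both population and replicate number rho was 0.692 and 0.731.

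Transcription factor genes, the classical targets of Polycomb, were more often at long than at short regions. Of 839 transcription factor genes in the families examined, 73 (8.70%) were at short regions and 231 (27.5%) at long ones. All 39 HOX cluster genes and 11 of 12 IRX and sine oculis-type homeobox genes were at long regions, and 0 of either were at short ones. Other ANTP-class homeobox genes had 7 of 61 at short and 49 at long regions, LIM homeobox genes 1 and 11 of 12, and paired-class and PAX genes 6 and 28 of 38.

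The homeobox genes at short regions ranged from the strongest regions to weak ones such as *Meox1*, with a lowest percentile of 25.9. *Gbx1*, *Cdx1* and *Cdx4* had lowest percentiles of 98.7, 96.6 and 94.9. *Hesx1*, a pituitary and forebrain patterning gene, and *Mixl1*, an endoderm gene, had 96.5 and 95.8, and *Prrx2* and *Hopx* had 83.2 and 73.7. *Pou2f3* had 93.7, *Pou3f1* 84.5 and *Satb1* 51.1. *Satb1* was at 89.0 or higher in the other lists and at 51.1 in non-CIN replicate 1.

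Among the other transcription factor families, bHLH genes had 16 of 72 at short regions and nuclear receptor genes 11 of 49, against 24 and 6 at long ones. The bHLH genes included *Hes2* (98.6), the circadian factor *Npas2* (98.0), *Tcf15* (92.6) and *Myod1* of skeletal muscle (92.6). The nuclear receptors included *Pparg* of fat cells (95.3), the mineralocorticoid receptor *Nr3c2* (93.9), the estrogen receptor *Esr1* (93.9) and the progesterone receptor *Pgr* (93.1). *Nr3c2* had H3K27ac in both replicate 1 lists and *Esr1* in CIN replicate 1. Numbered zinc finger genes had 11 of 391 at short regions (2.81%) and 4 at long ones (1.02%). They are 391 of the 839 transcription factor genes and lower the pooled shares.

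Signaling genes were more evenly divided. Of 249 genes for ligands, their receptors and antagonists, guidance molecules and neuropeptides, 60 (24.1%) were at short and 38 (15.3%) at long regions. WNT ligands had 7 of 19 at short and 11 at long regions, with *Wnt6* (97.5), *Wnt7b* (94.8), *Wnt9a* (91.1) and *Wnt4* (90.2) leading the short ones. The WNT receptor and antagonist genes had 8 of 31, led by *Wif1* (97.4), *Rspo1* (96.8), *Fzd5* (89.3) and *Frzb* (82.5). Ligands of the BMP, GDF and activin type had 8 of 32, led by *Nodal* (96.5), *Bmp6* (95.6), *Bmp8b* (94.3) and *Bmp8a* (89.9), and FGF ligands had 5 of 22, led by *Fgf15* (96.7).

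Neuropeptide genes had the highest share of any family examined, with 18 of 46 genes (39.1%) at short regions and 5 at long ones. *Cck*, *Tac1*, *Calcb* and *Penk* had lowest percentiles of 97.3, 96.8, 96.4 and 96.4. At *Cck*, cholecystokinin, the H3K27me3 percentiles were 97.5 and 97.8 in CINs against 98.3 and 97.3 in non-CINs. At *Penk*, proenkephalin, they were 97.6 and 96.4 in CINs against 97.6 and 97.0 in non-CINs. Several of these peptides are made by subsets of adult interneurons, and the populations overlapped at both genes. *Cck* had no H3K27ac over its region, and *Penk* had 200 bp of it in non-CIN replicate 1, from a peak at a percentile of 2.56. Some list had H3K27ac at the promoter of 5 of the 18 genes, where 559 of the 1452 genes at short regions had it and 43.4% of all protein-coding genes had none, and *Pnoc*, prepronociceptin, is among the 24 regions with H3K27ac in both CIN lists only that are described below.

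Receptor and channel genes were more often at short than at long regions, as were all protein-coding genes (6.64% and 2.71%). Of 220 receptor genes, 64 (29.1%) were at short and 11 (5.00%) at long regions, and of 140 ion channel genes 37 (26.4%) and 12 (8.57%). The G protein-coupled receptors had 46 of 150 at short regions, led by the adrenergic receptors *Adra2b* (97.3) and *Adra2c* (96.9) and the stress hormone receptor *Crhr1* (96.8). Glutamate receptors had 9 of 26, among them *Grm8* (95.8), *Grin2c* (91.0) and *Grin3b* (84.9). GABA, glycine and nicotinic receptor genes had 9 of 44, led by *Chrna3* (97.6), *Gabbr2* (93.5) and *Gabra5* (89.7). Potassium channels had 25 of 96, led by *Kcne3* (98.1) and *Kcnma1* (96.5), and calcium and sodium channels had 12 of 44, led by *Cacna1i* (96.3) and *Scnn1b* (95.5).

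Matrix genes were divided in the same direction, with 24 of 79 collagen, ADAMTS and laminin genes (30.4%) at short and 2 at long regions. *Col14a1* (98.3), *Col15a1* (97.2) and *Col13a1* (96.7) were among them. Solute carriers had 42 of 385 (10.9%), led by *Slc11a2* (98.6), *Slc25a48* (98.3) and the serotonin transporter *Slc6a4* (98.2). Cadherins and protocadherins had 6 genes (5.94%), and *Cdh11* (83.3) led them. Genes in none of these families had 1136 of 18016 (6.31%) at short and 284 (1.58%) at long regions, so they too were more often at short ones.

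The families taken as controls had 10 of 1835 genes at such regions (0.545%), a share that is set mainly by the large olfactory family. Cytosolic ribosomal protein genes had 0 of 80 and core histone genes 0 of 67. Olfactory and vomeronasal receptors, which are silent in cortex and CpG-poor, had 3 of 1461 genes. Keratins had 6 of 106 (5.66%), close to the 6.64% of all protein-coding genes, among them *Krt8* (97.5) and *Krt19* (91.8).

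These shares depended on how the regions were delimited. With a limit of 3000 bp 5.72% of transcription factor genes had a region, against 5.01% of all genes, and with wider promoters (2 kb on the upstream side, 500 bp on the other) 40.7% of channel genes had one, against 8.83%. Over the 1001 regions with all 4 merged peaks under 5000 bp, 4.50% of all protein-coding genes had a region, against 4.17% of transcription factor, 12% of signaling, 20.5% of receptor, 17.1% of channel and 20.3% of matrix genes. Pooled transcription factor genes then lay below the share of all genes instead of above it, while the other 4 groups stayed above. The pooled share depends on the numbered zinc finger genes, 391 of the 839, so it does not describe each transcription factor family.

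**Figure D2:**
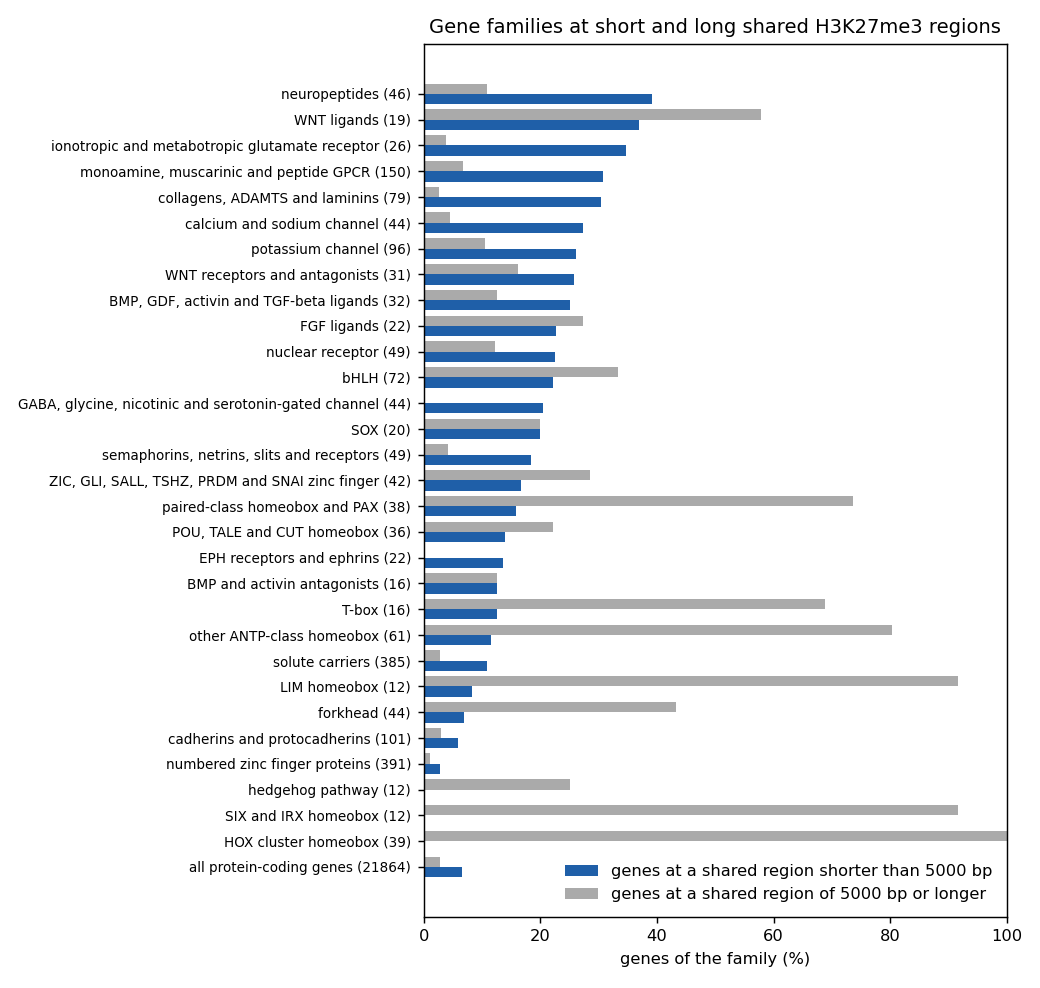
Bars give the percentage of each family's genes (family size in brackets, families of 12 or more genes other than the controls, with all protein-coding genes at the foot) at a short (blue) or long (grey) shared H3K27me3 region. HOX genes are at long regions only (100%), while neuropeptide genes (39.1% short) and glutamate receptor genes (34.6% short) are more often at short ones.

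Of 30 marker genes of cortical cell types, 7 were at short regions and 13 at long ones. *Emx1*, of cortical progenitors and projection neurons, had H3K27me3 percentiles of 95.6 and 97.7 in CINs against 75.7 and 91.5 in non-CINs, with both CIN lists above both non-CIN lists. *Olig2*, of the oligodendrocyte lineage, had 95.5 and 95.4 in CINs against 91.0 and 91.5 in non-CINs, and *Cldn5* of endothelial cells had 97.9 and 95.7 in CINs against 95.9 and 94.5 in non-CINs. *Dlx2*, an interneuron transcription factor, had 93.8 and 97.7 in CINs against 99.8 and 99.7 in non-CINs. It was the 1 marker at a short region with both non-CIN lists above both CIN lists, and its 445 bp lay in merged peaks of 542 and 32810 bp in CINs and of 26112 and 33805 bp in non-CINs.

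The TSS nearest to the centre lay inside the region at 800 regions (53.5%), which extended by a median of 907.5 bp upstream and 1454 bp downstream of it. The region lay wholly upstream of that TSS at 628 regions and wholly downstream at 68. Windows that reach farther upstream than downstream favour the first of these. The share of these TSSs under an H3K27me3 peak was also highest upstream, where the choice of regions places it, at 71.5% and 82.4% in CINs (positions −400 and −700 bp) and at 70.7% and 79.8% in non-CINs (positions −300 and −500 bp). In the replicate 2 lists it fell to 61.7% and 57.2% at the TSS itself. Over the 5′-most TSS of every gene, which were not chosen by H3K27me3, the share was highest downstream in all 4 lists, at 9.32% and 11.7% in CINs (positions 800 and 1000 bp) and at 9.19% and 11% in non-CINs (positions 900 and 1000 bp).

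**Figure D3:**
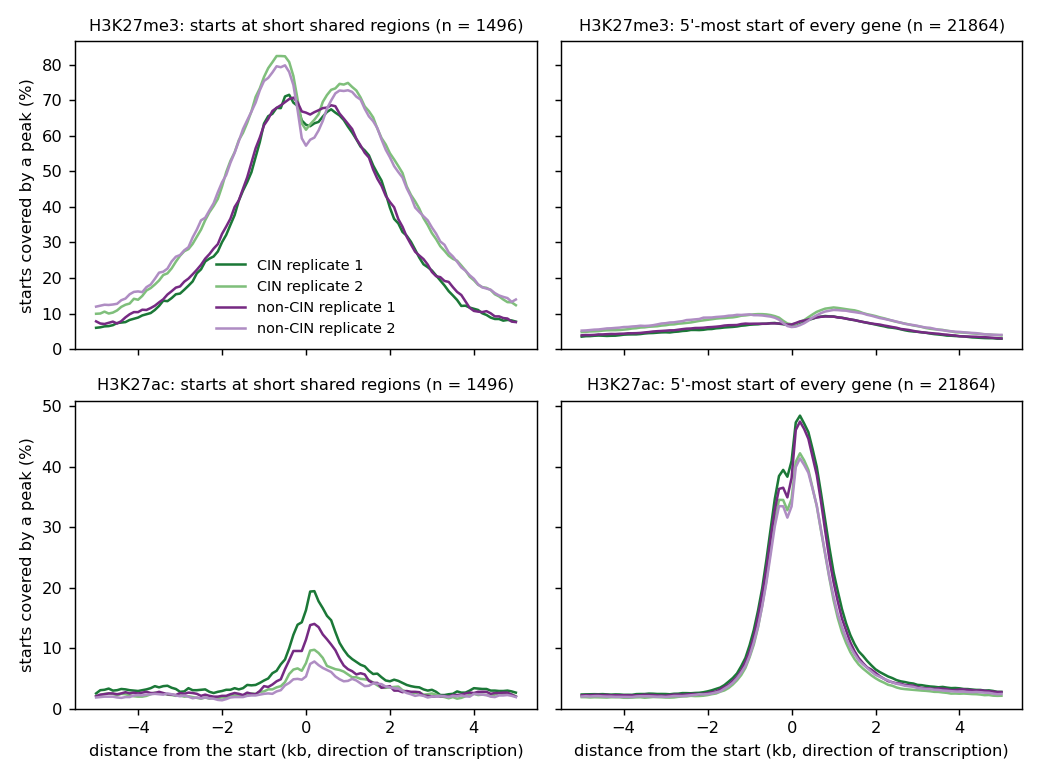
The percentage of TSSs under a listed peak is plotted against distance from the TSS (kb, negative upstream), for the TSS nearest to each of the 1496 regions and for the 5′-most TSS of all 21864 genes, with 1 line per list. H3K27me3 over the regions is highest upstream and, in the replicate 2 lists, lowest within 1 kb at the TSS itself, and H3K27ac peaks 200 bp downstream at 7.82% to 19.5% of these TSSs against 41.4% to 48.5% of all.

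H3K27ac was not used to choose the regions. It was listed over 249 regions (16.6%) in CIN replicate 1, 99 (6.62%) in CIN replicate 2, 172 (11.5%) in non-CIN replicate 1 and 71 (4.75%) in non-CIN replicate 2. Replicate 1 was above replicate 2 in both populations, and the populations overlapped. The CIN lists averaged 174 regions and the non-CIN lists 121.5, a difference of 52.5 that was smaller than the spread between replicates (two-sided exact permutation test over the 4 lists, *p* = 0.667, n = 2 per population). With 2 lists on each side this test cannot go below 0.333.

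No list had H3K27ac over 1185 regions (79.2%, 95% Wilson interval 77.1% to 81.2%, counting error only), and all 4 lists had it over 42 (2.81%). It was in 1 list only at 149 regions, of which 99 were in CIN replicate 1 and 46 in non-CIN replicate 1. Both replicate 1 lists alone had it at 55 regions, and both replicate 2 lists alone at 3. At long promoter regions no list had it over 429 of 528 (81.25%), close to the value of the short ones, and at short stretches away from promoters over 91.6%. Across the 6 length classes of short regions the share without H3K27ac stayed between 77.3% and 83.3%.

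Over whole promoter windows, 893 of the 1452 genes (61.5%) had no H3K27ac in any list, against 43.4% of all protein-coding genes. All 4 lists had it at 209 of them (14.4%), against 46.5% of all genes. The genes at long regions had none at 81.25% and all 4 at 8.45%, so H3K27ac at the promoter was listed more often at genes with short than with long regions. Among genes at short regions, some list had H3K27ac at the promoter of 37 of 73 transcription factor, 21 of 60 signaling, 18 of 64 receptor, 16 of 37 channel and 6 of 24 matrix genes. A gene has several promoter windows where it has several TSSs, and H3K27ac can then be at another TSS than the region.

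Where H3K27ac was present, the part of the region that it covered varied widely. The covered share had medians of 21.3% and 32.3% in the CIN lists, against 16.8% and 26.9% in the non-CIN lists. The upper quartiles were 47.6% and 65.1% for CINs, and 35.7% and 97.9% for non-CINs. The H3K27ac peaks themselves were at median percentiles of 51.1, 55.5, 42.7 and 60.5 of their lists, which is near the middle. For all regions, the median distance to the nearest H3K27ac peak was 8.86 and 19.4 kb in CINs and 13.1 and 22 kb in non-CINs, and 539, 306, 440 and 261 regions had one within 2 kb. The distances at long promoter regions were greater in every list, with medians of 20.8, 31.7, 24.5 and 34.8 kb.

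**Figure D4:**
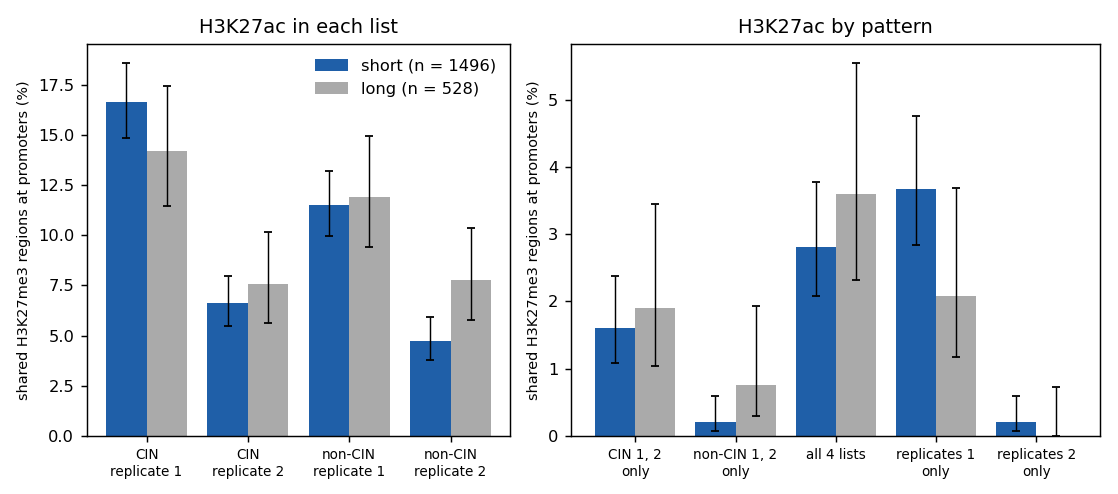
Bars give the percentage of short (blue, n = 1496) and long (grey, n = 528) promoter regions with H3K27ac, by list and by pattern over the lists, with 95% Wilson intervals. Replicate 1 lists are above replicate 2 lists in both populations, from 16.6% down to 4.75% for short regions, and the pattern of both CIN lists only holds 1.60% of them against 0.201% for both non-CIN lists only.

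Both CIN lists and neither non-CIN list had H3K27ac over 24 regions (1.60%), and the reverse held for 3 (0.201%). At long promoter regions these patterns held for 10 (1.89%) and 4 (0.758%), both larger shares. Over the promoter windows of the 1452 genes these patterns held for 37 genes (2.55%) and 6 genes (0.413%), where 0.681% and 0.37% of all protein-coding genes had them. The genes at long regions had 1.35% and 0.338%. Leaving out an H3K27ac list drops a condition from the pattern, so its count could only stay or rise. CIN replicate 1, CIN replicate 2, non-CIN replicate 1 and non-CIN replicate 2 of H3K27ac were left out in turn. In this order the CIN-only count became 25, 123, 38 and 33, and the non-CIN-only count of 3 became 9, 8, 6 and 49.

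Among the 10 CIN-only regions with the strongest H3K27ac, the covered length differed widely. At *Stmn2*, a neuronal tubulin regulator, H3K27ac covered 2417 and 1471 of 3899 bp in the CIN lists, at percentiles of 79.5 and 55.5. At *St8sia3*, a sialyltransferase of brain, it covered 2296 and 1826 of 4651 bp, and at *Flrt2*, a guidance and adhesion protein, 1766 and 1284 of 1987 bp. These 3 regions carried H3K27ac over the largest lengths among the 10.

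At *Ina*, a neuronal intermediate filament, H3K27ac covered 867 and 789 of 1778 bp, and at *Eml2* 844 and 541 of 1895 bp. At *Amer3* it covered 405 and 104 of 1123 bp, at *Dlx2* 123 and 250 of 445 bp, and at *Caly*, a dopamine receptor-interacting protein, all 152 bp in both lists. At *Dlg2*, a postsynaptic scaffold, it covered 170 and 61 of 2950 bp and at the imprinted gene *Peg3* 29 and 35 of 1369 bp, so H3K27ac covered only a small part of the last 2 regions.

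H3K27me3 over the 24 CIN-only regions was lower in CINs than in non-CINs for the most part. Its median percentiles were 75 and 86.8 in the CIN lists, against 93.4 and 94.8 in the non-CIN lists. The 1185 regions without H3K27ac had medians of 88.5 and 91.6 against 87.4 and 91.1, and the 42 with H3K27ac in all 4 lists had 84.8 and 91.9 against 79.2 and 91.8. Non-CINs were above CINs at 20 of the 24 in replicate 1 and at 22 in replicate 2, where 48.8% and 48.1% of all 1496 regions had that order. Both non-CIN lists were above both CIN lists at 13 of the 24 regions (54.2%), and the reverse held at 0. Among all 1496 regions these orders held for 13.3% and 19.0%, and among all 11563 shared stretches for 23.9% and 11%.

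At *Stmn2* the H3K27me3 percentiles were 75.8 and 86.0 in CINs against 92.2 and 95 in non-CINs. At *Amer3* they were 70.8 and 90.8 in CINs against 95.9 and 96.9 in non-CINs. At *Ina* they were 91.6 and 95.9 in CINs against 99.0 and 97.2 in non-CINs. The populations did not overlap at these 3 genes, nor at *Flrt2*, *Dlx2* and *Peg3*, while they overlapped at *Dlg2*, *St8sia3*, *Eml2* and *Caly*.

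**Figure D5:**
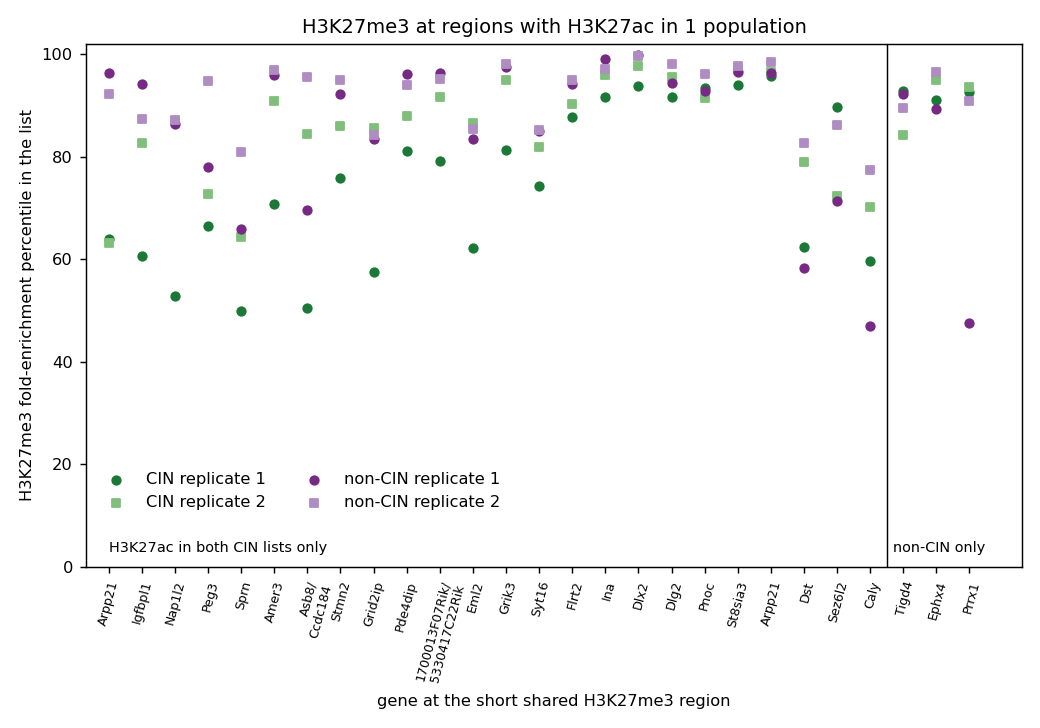
For each of the 24 regions with H3K27ac in both CIN lists only and the 3 with H3K27ac in both non-CIN lists only (right of the line), points give the H3K27me3 fold-enrichment percentile in each of the 4 lists. CIN points (green) lie below both non-CIN points (purple) in both replicates at 13 of the 24 regions.

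The 3 regions with H3K27ac in both non-CIN lists only were at *Tigd4*, *Ephx4* and *Prrx1*, a mesenchymal homeobox gene. H3K27ac covered 336 and 259 of 2349 bp at *Tigd4*, 438 and 419 of 4186 bp at *Ephx4* and 7 and 313 of 1739 bp at *Prrx1*. In the same order, the H3K27ac peaks were at percentiles of 44.0, 8.19 and 71.8 in non-CIN replicate 1 and of 19.7, 2.24 and 1.64 in non-CIN replicate 2, so *Ephx4* was low in both lists and *Prrx1* only in replicate 2. H3K27me3 was lower in both non-CIN lists than in both CIN lists at 1 of the 3, *Prrx1*, with percentiles of 92.6 and 93.7 in CINs against 47.5 and 90.9 in non-CINs. The populations overlapped at *Tigd4*, with 92.9 and 84.3 against 92.2 and 89.5, and at *Ephx4*, with 91.1 and 94.9 against 89.2 and 96.5.

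The regions with H3K27ac in all 4 lists were often short. Their median length was 1426.5 bp, against 1717 bp for regions with none. *Nr2f1*, a nuclear receptor of cortical patterning, had 188 bp that H3K27ac covered in full in all 4 lists, at percentiles of 92.6 and 94.5 in CINs against 90.3 and 92.2 in non-CINs. *Otx1* (288 bp) and *Rfx4* (348 bp), both transcription factors of forebrain development, were likewise covered in full. Their lowest H3K27me3 percentiles were 32.0, 43.6 and 37.9.

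Longer regions with H3K27ac in all 4 lists were at *Chn1* (1970 bp), a Rac-regulating protein of axons, and *Sptbn1* (4100 bp), a spectrin. H3K27ac covered 592, 280, 284 and 183 bp of the first and 142, 37, 149 and 17 bp of the second. At *Olig2* it covered 3860 and 4116 of 4116 bp in CINs and all of it in both non-CIN lists, with H3K27ac percentiles of 69.1 and 76.0 against 89.2 and 92.0. Most or all of the *Olig2* region thus lay under H3K27ac in each list.

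The populations' H3K27me3 percentiles differed most at very short regions. Both non-CIN lists were above both CIN lists by the largest margin at *Rbp4*, a retinol carrier, with 18.3 and 16.5 in CINs against 62.7 and 80.6 in non-CINs over 443 bp. *Mogat2*, *Arpp21*, *Mapk8ip2* and *Asic2* followed, with 46, 662, 29 and 200 bp. In the other direction *Etv4*, an ETS factor, had 82.6 and 85.5 in CINs against 8.11 and 16.3 in non-CINs over 228 bp. *Cerkl*, *Fzd6*, *Ntng1* and *Hsbp1l1* followed, with 334, 200, 191 and 15 bp. All 10 were 662 bp or shorter, lengths at which the shared stretch can be a small part of each list's peak.

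CpG content was taken from the reference sequence and was not used to choose the regions. Over the 1428 regions of 200 bp or longer with complete sequence, the median ratio of observed to expected CpGs was 0.402 (quartiles 0.294 and 0.5) at 51.3% GC. Long promoter regions had a median of 0.413 and short stretches away from promoters 0.219. Regions with H3K27ac in all 4 lists had a median of 0.486 (n = 39), and those without H3K27ac 0.389 (n = 1133). The 476 regions with the weakest H3K27me3 had a median of 0.353 and the 476 with the strongest 0.432. The regions thus lay close to the long promoter regions in median CpG ratio and above the short stretches elsewhere.

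The 500 bp upstream of TSSs were examined in the same way. A sequence of at least 50% GC with a CpG ratio of at least 0.6 was counted as CpG island-like, and 862 of 2215 TSSs at short regions (38.9%) had one, against 33.6% of all 41397 protein-coding TSSs with complete sequence. TSSs at long regions had 45.9%, TSSs of genes with H3K27ac in all 4 lists 52.3%, and TSSs of genes without H3K27ac 7.98%. The median CpG ratios were 0.549, 0.607, 0.668 and 0.189 in the same order, and 0.466 for all TSSs. TSSs of 1 gene often overlap, so these counts are not of independent sites. Over whole regions, 7.42% of short and 1.52% of long promoter regions were island-like. The share was 9.45% for the short regions with the weakest H3K27me3 and 6.30% for the strongest, the opposite order to their median CpG ratios.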

How the data were processed

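Native ChIP-seq of H3K27ac and H3K27me3 was carried out on CINs and non-CINs in 2 replicates each, with 4 input samples that are not analysed separately here. Reads were aligned to mm10 by the authors, and BWA 0.7.15, MACS2 2.2.7 and deepTools 3.4.3 stand in the submitters' processing notes. The deposited peak lists, called by the authors for each sample, give a score, fold enrichment over input, and −log10 p and −log10 q. Depth was not used here, so precision rests on the number of lists.

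In each H3K27me3 list, peaks with gaps of up to 500 bp were joined, and stretches covered by all 4 lists were taken. Promoters ran from 1 kb upstream to 100 bp downstream of protein-coding transcript starts (GENCODE, mm10). The percentile of a region was that of the fold enrichment of the strongest peak over it among all peaks of the list. Any overlap counted as H3K27ac over a region. The CpG ratio was observed over expected CpGs, in stretches of at least 200 bp. Gene families were defined by symbol patterns. The regions, families and gene lists were chosen with earlier results of these data known.

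Genes named were those with the highest lowest-of-4 percentile overall and in each family, those with H3K27ac in 1 population or in all 4 lists by H3K27ac percentile, those nearest the 5000 bp limit, and those with the largest gap between populations. Marker genes and the regions with the lowest CpG ratio were named in addition, *Meox1* and *Pnoc* were chosen after their values were seen, and some members that meet the rule are not reported here. The number of regions with H3K27ac was compared by a two-sided exact permutation test over the 4 lists. Interval operations were tested on simulated data. Python 3.11.15, NumPy 2.4.6 and SciPy 1.17.1 were used. Alternatives were other gaps, promoters, length limits, *q* thresholds and overlaps, each list left out in turn, a replicate block, and 2 settings chosen after seeing the data: a limit on the merged peaks and H3K27ac lists of equal size.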

Additional observations from a re-analysis of the deposited data

How the results depend on the processing

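Of 222 values recomputed for 15 results under 22 alternatives, 1 changed direction and 39 moved. A count or share was said to move if it changed by over 1.5 times. The median percentile was said to move if it changed by more than 2.19, the SD of the medians of the 4 lists. The median CpG ratio was said to move if it left its 95% interval of 0.392 to 0.411. The difference in H3K27ac between populations varied widely, and no test of it could pass 0.05 with these lists. The value that changed direction was the difference in regions with H3K27ac between CIN and non-CIN lists, which was −22.5 without H3K27ac CIN replicate 1 (exact permutation *p* = 1, with 1 CIN list left). It ranged from −22.5 to 127.5 when each H3K27ac list was left out and from 46.5 to 80 when each H3K27me3 list was. With a replicate block it was 52.5 (exact *p* = 0.5, the smallest that 2 pairs allow), with CINs above non-CINs in both replicate numbers. Deviations of lists with the same replicate number correlated at r = 0.354 over the regions, but only 2 pairs exist and the labels do not say what a number marks. With H3K27ac lists of equal size (46040 peaks, chosen after seeing the data) the difference was 44, with 26 CIN-only, 4 non-CIN-only, 36 all-list and 1237 regions without H3K27ac.

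Counting H3K27ac within 2 kb gave 45 CIN-only, 14 non-CIN-only and 205 all-list regions, and H3K27ac over 50% or more of the region gave 6, 1 and 14. The limit on merged peaks gave 11, 1 and 25 and a median percentile of 72.5. The wider promoter (2 kb upstream to 500 bp downstream) gave 7 non-CIN-only and 74 all-list regions, a percentile of 74.7 and a CpG ratio of 0.379. A gap of 1000 bp gave 5 non-CIN-only regions and a CpG ratio of 0.428. A −log10 *q* of at least 4 gave 20 all-list regions, a percentile of 89.1 and a CpG ratio of 0.424. A limit of 3000 bp gave 70.6 and 0.387, and the 500 bp upstream gave a CpG ratio of 0.534. Leaving out each H3K27me3 list gave 1512 to 1724 regions, 1471 to 1651 genes, 24 to 34 CIN-only, 3 to 9 non-CIN-only, 44 to 64 all-list and 1178 to 1308 regions without H3K27ac, percentiles of 79.5 to 81.1 and CpG ratios of 0.381 to 0.411. Leaving out each H3K27ac list gave 25 to 123 CIN-only, 6 to 49 non-CIN-only, 47 to 56 all-list and 1186 to 1284 regions without H3K27ac. These are counts of looser patterns, which could only stay or rise. The cause of these changes was not tested. Each count of H3K27ac patterns rests on 2 lists in each population.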
